A study of Mus musculus with 2 samples.

Results

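The genes described here are 9 repressor genes of the mammalian circadian clock and the activator gene Rora, set against the peaks of a FLAG-HLF binding profile from mouse blood progenitors. They are Per1, Per2, Per3, Cry1, Cry2, Nr1d1, Nr1d2, Bhlhe40, Bhlhe41 and Rora, out of 21900 protein-coding genes. A peak was counted for a gene if its centre lay inside the gene or within 100 kb of either end. Of the 3153 peaks in the list, 14 met this rule, at 6 of the 10 genes. The other 4 genes, Per3, Cry1, Cry2 and Bhlhe41, had none. The background was 36.3% of all coding genes with a peak by the same rule.

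HLF, hepatic leukemia factor, belongs to the PAR bZIP group of DNA-binding proteins. The FLAG-HLF library came from wild-type LSK cells (lineage-negative, Sca-1+, c-Kit+ stem and progenitor cells of mouse blood) infected with the retrovirus pMX-3xFLAG-Hlf/Hlf-IRES-GFP, which also marks infected cells with GFP. The control library came from LSK cells given a pMX-GFP virus (GFP-ctrl). In both arms, 80000 cells were infected and kept for 5 days in basal OP9 medium, to which SCF, IL-7, Flt3L and IL-3 had been added. Chromatin was precipitated with an anti-FLAG antibody, with 1 library in each arm. HLF was thus supplied from a retrovirus and not measured at its native level. The GFP-ctrl library was not analysed here. The values below are positions from the 1 FLAG-HLF list, which holds no read counts, heights or significance, so they carry no replicate error, no depth and no p-value. The labels give no animal age, sex or strain and no time of day of harvest. Cell identity after culture could not be checked, since a peak list holds no expression values.

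In the clock, the activators CLOCK and BMAL1 bind E-box elements and drive transcription of the Per and Cry genes, whose proteins return to the nucleus and repress those activators. REV-ERB receptors (Nr1d1, Nr1d2) repress and ROR receptors (such as RORA) activate Bmal1 through shared response elements. DEC1 and DEC2 (Bhlhe40, Bhlhe41) compete at E-boxes. PAR bZIP proteins and the repressor NFIL3 act on a further element, the D-box, which is known from the Per genes among others.

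Among the 8 genes found in the RefSeq promoter table, the peak nearest to a transcription start lay at Per1, which encodes the PERIOD1 repressor. It spanned chr11:69098730-69099129 (mm10, GRCm38), 3.82 kb inside the bounds of the gene. These bounds begin upstream of both Per1 starts in the RefSeq promoter table, and the peak centre was 20 bases upstream of the first of those starts. The peak covered 269 of the 300 bases of that promoter window, which runs from 250 bases before the start to 50 after it. The window held the word TTATGCAA, a variant of the PAR bZIP site, 17 to 24 bases upstream of the start. The middle of this word was 0.5 bases from the peak centre. The window is printed from RefSeq (GRCm38.p6, chr11:69098699-69098998, plus strand), with that word in capitals. It is shown because, of the 9 promoter windows of these 8 genes, it is the only one that a peak overlapped. Per2 and Bhlhe40 have no window in the promoter table, so overlap could not be counted for them.

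Per1 first window: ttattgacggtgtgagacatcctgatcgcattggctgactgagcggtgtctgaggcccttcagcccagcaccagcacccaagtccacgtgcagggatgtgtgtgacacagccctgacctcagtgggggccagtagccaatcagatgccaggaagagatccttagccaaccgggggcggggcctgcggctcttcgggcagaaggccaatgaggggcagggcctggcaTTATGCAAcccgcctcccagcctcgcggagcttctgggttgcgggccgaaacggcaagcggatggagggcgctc

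The same Per1 window also held 1 E-box word (CACGTG), 1 AGGTCA word (the core of nuclear receptor elements), 3 CCAAT words and 1 GGGCGG word. All of these lay inside the peak except 1 CCAAT word at its edge. Those inside were 25 to 143.5 bases from the peak centre, farther than the PAR bZIP word. The second Per1 window, 1.203 kb downstream (start at 69100152), overlapped no peak and held none of the PAR bZIP words. Per3, the remaining PERIOD gene, held such words without a peak. This was the usual case: of 636 promoter windows in the table with a PAR bZIP word, 597 overlapped no peak. The Per3 window (chr4:151044616-151044915, minus strand) held TTATGTAA at 2 places, 151 to 158 and 198 to 205 bases upstream of the start. No peak lay within 413 kb of the gene. It is printed with both words in capitals for comparison with Per1.

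Per3 window: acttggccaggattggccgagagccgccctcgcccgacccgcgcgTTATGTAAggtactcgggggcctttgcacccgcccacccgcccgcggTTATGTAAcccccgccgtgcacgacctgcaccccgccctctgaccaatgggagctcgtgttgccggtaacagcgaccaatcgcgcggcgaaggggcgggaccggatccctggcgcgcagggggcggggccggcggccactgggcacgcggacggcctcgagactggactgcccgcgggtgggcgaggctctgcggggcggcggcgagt

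Words were searched on both strands in the promoter windows of all genes in the table. The PAR bZIP words were TTACGTAA, TTATGTAA, TTACGCAA and TTATGCAA, and the table holds 32851 windows. Any of these 4 words occurred in 1.94% of all windows, and TTATGCAA alone in 0.743%. These shares count windows, of which a gene can have more than 1, and no share of genes is given. TTATGTAA occurred 2 or more times in 7 windows, of which Per3's was 1, and none of the 7 overlapped a peak. Of the 8 members in the promoter table, which have 9 windows, Per1 and Per3 each held a PAR bZIP word in 1 window. Cry1, Cry2, Nr1d1, Nr1d2, Bhlhe41 and Rora did not, which says only that these letters are not in these windows. Per2 and Bhlhe40 are not in the table. C/EBP proteins bind related words, so a match does not name the factor.

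Across the whole list, the windows that peaks covered held these words more often than windows at large. Among the 171 windows with at least 150 of their 300 bases inside a peak, 22.2% (38 windows) held a PAR bZIP word, against 1.94% of all windows. The limit of 150 bases was chosen after the data were seen, and 227 windows shared at least 1 base with a peak. Of the 32624 windows with no shared base, 1.83% (597 windows) held a PAR bZIP word. The E-box word was in 11.7% of the covered windows and 7.15% of all windows. The nuclear receptor word AGGTCA was in 14.0% of the covered windows and 16.3% of all windows, and TAGGTCA, which contains it, in 1.75% of the covered and 2.61% of all. The CRE word TGACGTCA was in 3.51% of the covered windows and 1.79% of all windows. CCAAT, the core of the NF-Y site, was in 40.4% of the covered windows and 37.4% of all windows. GGGCGG, the GC box, was in 46.2% of the covered windows and 35.7% of all windows. Windows of 1 gene can overlap each other. The PAR bZIP words also sat near peak centres. Of 42 such words inside a peak and in an overlapped window, 54.8% lay within 20 bases of the centre, at a median of 15.5 bases. The median was 29.5 bases for the 3 CRE words, 87.0 bases for the 83 CCAAT words, 96.0 bases for the 26 AGGTCA words, 97.0 bases for the 3 TAGGTCA words, 107 bases for the 136 GGGCGG words and 108.0 bases for the 18 E-box words. The share within 20 bases was 33.3% for CRE words (1 of 3), 16.9% for CCAAT, 15.4% for AGGTCA, 5.56% for E-box words, 2.21% for GGGCGG and 0 of 3 for TAGGTCA. These shares are descriptions of 1 list. Base composition of the windows was not matched.

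**Figure D1:**
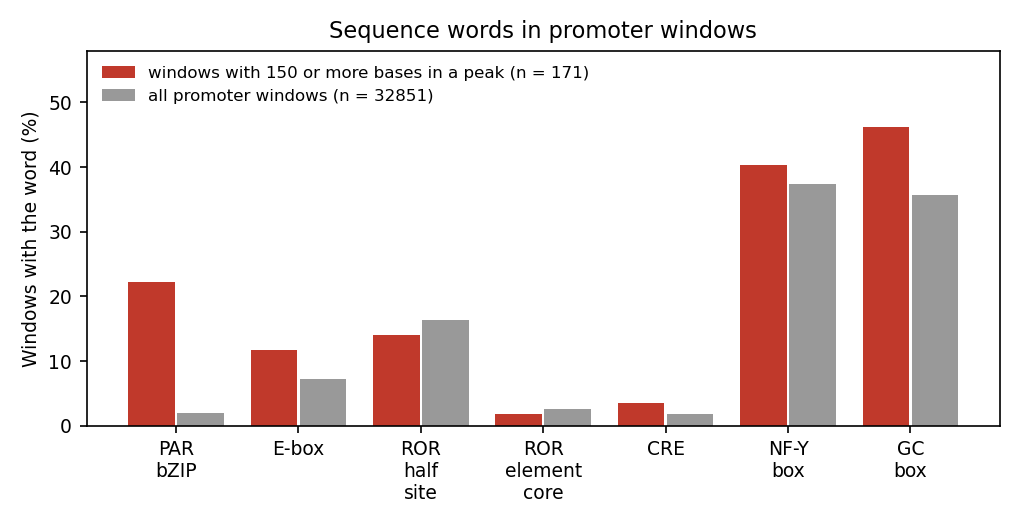
Share of 300-base promoter windows (y axis, %) that hold each family of words (x axis), for the 171 windows with at least 150 bases inside a FLAG-HLF peak (red) and all 32851 windows (grey). The limit of 150 bases was chosen after the data were seen. The ROR words are AGGTCA and TAGGTCA, and the NF-Y box is CCAAT. The PAR bZIP words show the widest gap, 22.2% of covered windows and 1.94% of all windows.

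Per1 carried 2 further peaks upstream of the covered promoter. The next was at chr11:69094624-69095023, centred 0.285 kb outside the lower-coordinate end of the gene and 4.13 kb upstream of the first start. The outermost, at chr11:69092689-69093088, was 2.22 kb outside that end and 6.06 kb upstream of the start. It lay nearer to Vamp2, which encodes a vesicle fusion protein, at 0.507 kb from that gene's end. The gap between Vamp2 and Per1 is 2.73 kb, so a peak there is close to both genes. The 3 Per1 centres spanned 6.04 kb. Per1 was the 1 member with 3 or more peaks inside the gene or within 5 kb, a count reached by 0.251% of coding genes (55 genes).

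**Figure D2:**
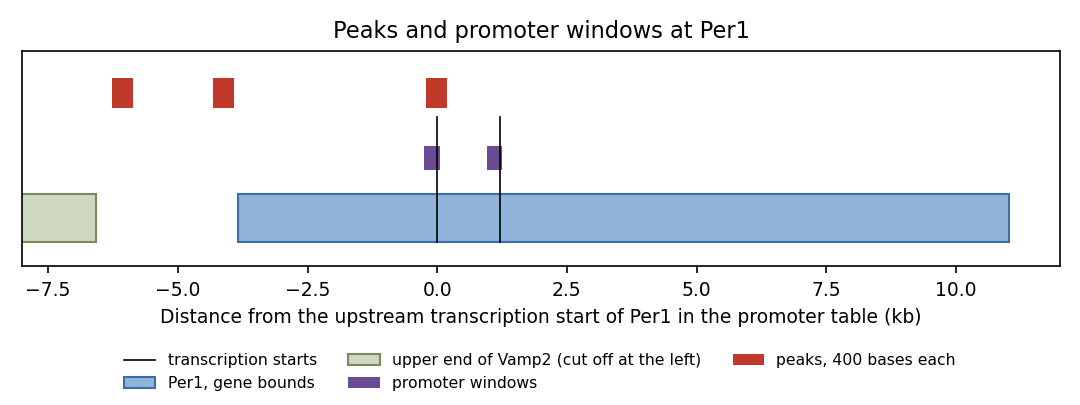
Peaks (red), promoter windows (purple) and gene bounds at Per1, by distance in kb from its first transcription start in the promoter table. The rightmost of the 3 peaks sits on the first start, and the other 2 lie 4.13 and 6.06 kb upstream, between Vamp2 and the lower end of the Per1 bounds.

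Per2, which encodes the PERIOD2 repressor (chromosome 1, 91415977 to 91459351), had 2 peaks. One, at chr1:91459245-91459644, was centred 0.093 kb outside the upper-coordinate end, so its 400 bases ran across that end. The other, at chr1:91437545-91437944, lay near the middle of the gene, 21.8 and 21.6 kb from the ends. For both, Per2 had the nearest coding gene end. A noncoding RNA gene inside Per2, Gm35591, had an end 5.26 kb from the middle peak. The next coding genes are Hes6 at 1.94 kb below Per2 and Traf3ip1 at 35.2 kb above it. Per3 (chromosome 4, 150997018 to 151044707) overlaps Uts2 and lies 0.146 kb from Gm38529, and the closest peak was 413 kb away. Of the 3 PERIOD genes, Per1 and Per2 thus had a peak at an annotated start or gene end, and Per3 had none in its window.

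Neither cryptochrome gene had a peak. Cry1 and Cry2 encode the partners of PER in the repressor complex. The closest peak to Cry1 (chromosome 10, 85131700 to 85185054) was 226 kb from the gene, and the closest to Cry2 (chromosome 2, 92403646 to 92434085) was 230.2 kb away. The median over the 21631 coding genes on chromosomes with a peak was 181 kb. Both distances were therefore above that median. The Cry1 window held 1 E-box word and the Cry2 window held none.

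The 2 REV-ERB genes differed in where their peaks lay. Nr1d2, which encodes REV-ERB beta (chromosome 14, 18204056 to 18239106), had a peak at chr14:18238420-18238819. Its centre was 487 bases inside the gene, downstream of the transcription start on the minus strand, and 237 bases separated the peak from the Nr1d2 promoter window. That window held no PAR bZIP word and 1 AGGTCA word, 72 to 77 bases upstream of the start. The sequence under the Nr1d2 peak was not analysed here. A second peak lay 62.7 kb beyond the start, inside Ube2e1, a ubiquitin-conjugating enzyme gene, with the nearest coding end at Nkiras1 (17.8 kb).

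Nr1d1, which encodes REV-ERB alpha (chromosome 11, 98767932 to 98775377), had no peak inside or within 5 kb. Its closest was at chr11:98754955-98755354, 12.8 kb beyond the lower end and 20.2 kb downstream of the start. This peak lay inside Thra, the thyroid hormone receptor alpha gene, whose end overlaps that of Nr1d1. By nearest end it went to Nr1d1, and by the gene that holds it to Thra. The other peak of the Nr1d1 window was 54.2 kb upstream of the start and inside Casc3, a gene of the exon junction complex, 4.22 kb from the end of Casc3.

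The DEC genes also parted. Bhlhe40, which encodes DEC1 (chromosome 6, 108660629 to 108666925), had a peak at chr6:108659283-108659682, centred 1.15 kb outside its lower end. The peak lay inside a noncoding RNA gene, 0610040F04Rik, that reaches into Bhlhe40. Bhlhe40 stands alone, with no other coding gene within 100 kb of its ends; the neighbours are Itpr1 at 109.5 kb and Arl8b at 116.1 kb. Its second peak was 86.6 kb beyond the upper end and nearer to Arl8b (29.6 kb). Bhlhe41, which encodes DEC2 (chromosome 6, 145858243 to 145865420), had no peak within 297 kb, and its promoter window held an E-box word but no PAR bZIP word.

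Rora, the ROR member of the group, is the longest of the 10 genes at 734.8 kb (chromosome 9, 68653404 to 69388246). It had 2 peaks inside, and neither was within 20 kb of an end of Rora. The first, at chr9:69034264-69034663, was 381 kb from the lower end and 354 kb from the upper end. The second, at chr9:69367004-69367403, was 21.04 kb from the upper end and 713 kb downstream of the start in the promoter table. Another was 51.7 kb beyond the upper end and 6.84 kb from Ice2, a gene of the little elongation complex. A long gene offers more room, so Rora was set beside coding genes of 500 kb or more. Of those 227 genes, 26.4% held a peak and 14 genes held 2 or more. The density was 2.72 peaks per Mb inside Rora and 0.389 per Mb over the 227 genes. The Rora value rests on 2 peaks in a gene chosen with results of this list known. The value over the 227 genes takes in those with no peak, and their median was 0 peaks. The difference was not tested.

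**Figure D3:**
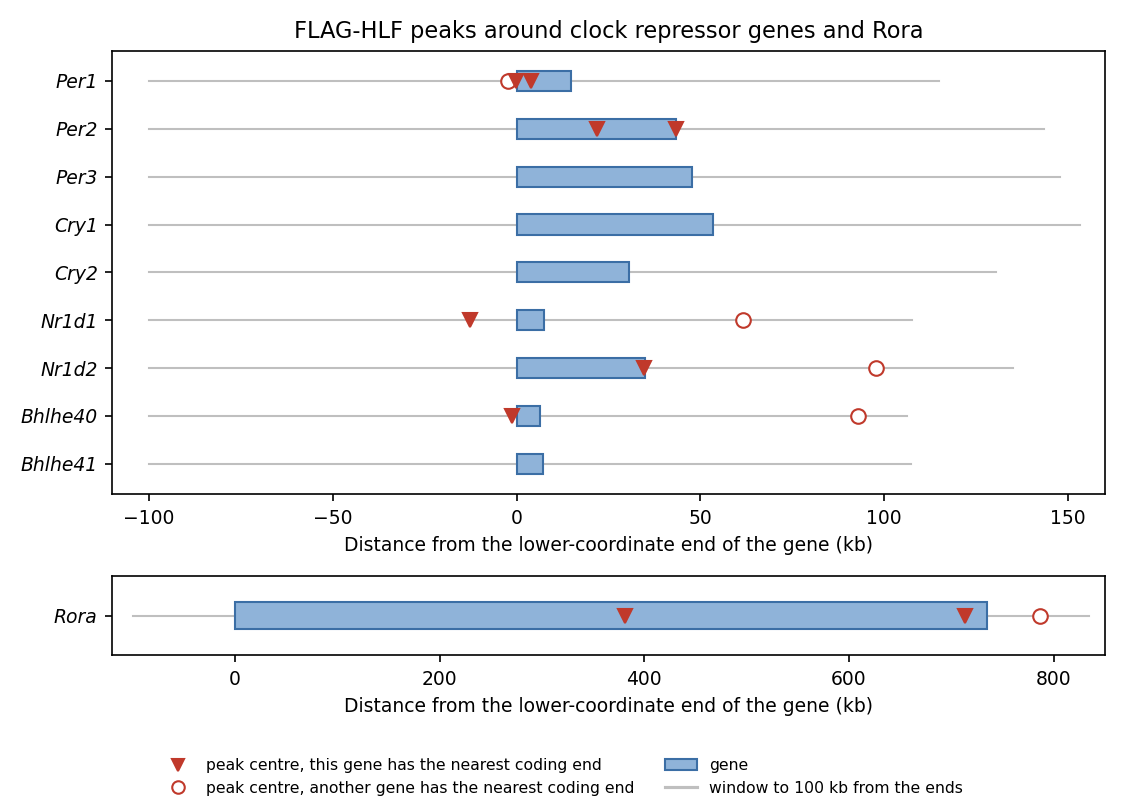
Each of the 10 genes (blue) with its 100 kb flanks (grey line) and peak centres, by distance in kb from the gene's lower-coordinate end, with Rora on its own scale. Filled triangles are the 9 peaks whose nearest coding gene end is that of the gene named, open circles the 5 with a nearer neighbour. Per3, Cry1, Cry2 and Bhlhe41 have no mark.

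Taking the 14 peaks together, 5 lay inside a member and 9 outside. There were 6 within 5 kb of a member's end, 3 of them within 1 kb, and 4 were over 50 kb outside the gene. For 9 peaks, spread over all 6 genes, the member had the nearest coding gene end. The other 5 were nearer to Vamp2, Casc3, Nkiras1, Arl8b and Ice2. All 6 genes with a peak had at least 2, as did 2721 of the 7947 coding genes with a peak. Over all genes, this was 6 of the 10 members and 12.4% of coding genes. On either side of the 100 kb limit, the farthest counted peak was 86.6 kb outside a member (Bhlhe40), and among the 4 genes without a counted peak the closest was 226 kb away (Cry1). By line in the file, whose order is not explained, 8 of the 14 lay in the first 1576 lines and 6 in the rest, from line 136 (Rora, beside Ice2) to line 2894 (Nr1d2). The peak on the Per1 start was line 298.

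Against all coding genes, the share of members with a peak stood highest relative to background at short range. Within 1 kb of either end 3 of 10 members had a peak (Per1, Per2 and Nr1d2), against 1.73% of coding genes. A peak inside the gene was found in 4 of 10 (Per1, Per2, Nr1d2 and Rora), against 6.82%. Inside or within 5 kb it was 5 of 10, against 9.42%. A promoter window that overlapped a peak was found in 1 of the 8 members in the table, against 0.949% of the 17492 coding genes there. The median distance from a member to its closest peak was 6.96 kb, against 181 kb. These counts rest on 10 genes that were chosen with results of this list known, so no p-value is given.

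**Figure D4:**
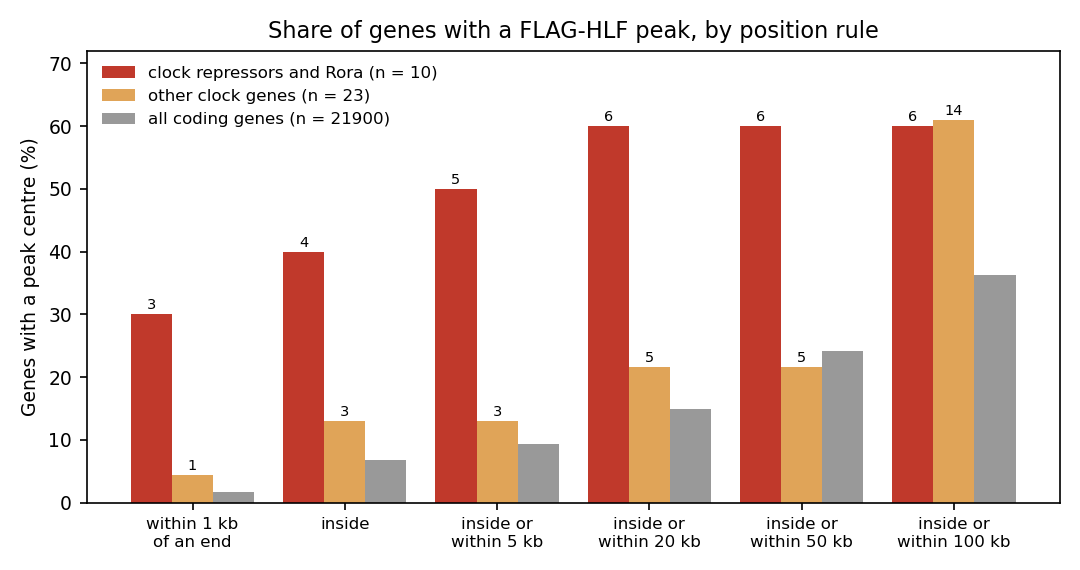
Share of genes with a peak centre (y axis, %) under 6 position rules (x axis), for the 10 genes (red), 23 other clock genes (orange) and 21900 coding genes (grey), with the number of genes printed on the red and orange bars. The red bars run between 30% and 60%, while the grey bars run between 1.73% and 36.3%.

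Gene length changed this background. Among coding genes of 10 to 50 kb, the class of Per1, Per2, Per3, Cry2 and Nr1d2, 5.88% held a peak, and 3 of these 5 members did. Among genes under 10 kb, the class of Nr1d1, Bhlhe40 and Bhlhe41, 1.22% held a peak, and none of the 3 members did. Open chromatin and expression in these cells were not analysed, and their part in these counts was not tested.

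**Figure D5:**
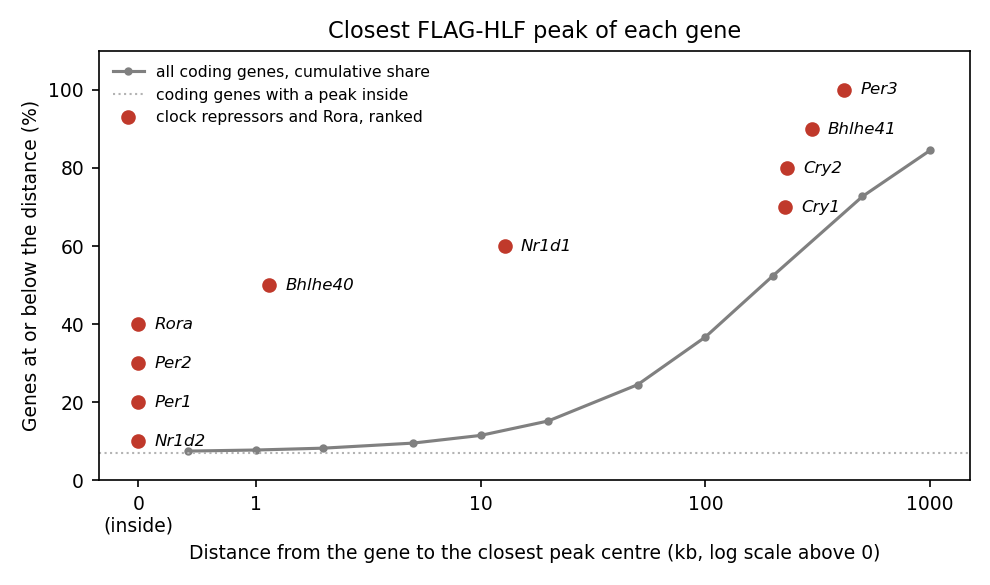
Distance in kb (x axis, log scale above 0) from each gene to its closest peak centre, with the 10 genes ranked (red, y axis as cumulative %) and all coding genes on chromosomes with a peak (grey line). The 10 genes split into 6 at or under 12.8 kb and 4 at or over 226 kb, with none between.

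The same counts were made for 23 other genes of the clock (activators, kinases, F-box proteins, PAR bZIP factors and outputs). Of these, 14 (60.9%) had a peak inside or within 100 kb, beside 60.0% of the 10 members and 36.3% of coding genes, so at this limit the members had no larger share than the other clock genes. A peak inside the gene was found in 3 of the 23 (13.0%), against 6.82% of coding genes. Inside or within 5 kb it was again 3 of 23, or 13.0%, against 9.42% of coding genes. Within 1 kb of an end it was 1 of 23 (4.35%), against 1.73% of coding genes. The difference between the members and the other clock genes was not tested. The activator genes Clock and Arntl (Bmal1) had their closest peaks at 65.8 and 93.3 kb, and Npas2 at 119.6 kb. The Clock peak lay inside Srd5a3. Arntl2 had a peak at 17.9 kb, inside Stk38l. Rorb, another ROR gene, had its closest peak at 1293 kb. Fbxw11, an F-box gene linked to the turnover of PER proteins, held 1 peak, 23.3 kb from its lower end. No gene of this list had 3 or more peaks inside or within 5 kb.

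The genes of the PAR bZIP factors and of the repressor NFIL3 were placed by the same rule. Tef had a peak centred 145 bases upstream of a start and overlapping its promoter window. The Tef windows held no exact PAR bZIP word. This was common, since only 38 of the 171 windows with at least 150 bases inside a peak held 1. A second Tef peak lay 7.56 kb inside the gene. The repressor gene Nfil3 held 1 peak, 4.14 kb downstream of its start. The PAR bZIP genes Hlf and Dbp had none closer than 95.6 and 81.4 kb.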

How the data were processed

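Anti-FLAG ChIP-seq of LSK cells was deposited as 1 peak list, of the FLAG-HLF library. The deposited values are start and end positions, with no score, and every interval is 400 bases wide. Per the submitters' processing notes, the tools were Bowtie2, bedtools and MACS2 and the build was mm10 (GRCm38). The notes name no versions. How peaks were called, and against which background, was not stated there. Read depth is unknown, so intervals and detection limits are not given.

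Peaks were placed by their centre (start + 200) against gene bounds of a RefSeq table (GRCm38.p6, 49997 genes, 21900 of them coding). Strand and starts came from the RefSeq promoter table, which matched 8 of the 10 members with 9 windows. No genome was used, so exons, introns and peak sequence outside promoter windows were not analysed. A promoter window counted as overlapped from 1 shared base. Words were matched exactly on both strands. The counting was tested on simulated peaks. No tests were run, because 1 list has no replicates. The named genes were all members, the genes that hold or lie nearest to their peaks, the other clock genes with a peak inside or within 20 kb, and Hlf, Dbp, Tef and Nfil3. A gene that this rule takes is not reported here. Clock, Arntl, Npas2 and Rorb, and the further annotated neighbours of the members, were named in addition, after their values were seen. The members and lists were chosen with earlier results of these data known. Alternatives changed the distance limit, gene set, placement, lines used and word matching. Counts were made with pandas 2.3.3 and numpy 2.4.6 in Python 3.11.15, and plots with matplotlib 3.10.9.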

Additional observations from a re-analysis of the deposited data

How the results depend on the processing

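Of 25 alternative values for 6 results, 17 stayed within 1.5 times the reported value. The 14 member peaks became 9 inside or within 5 kb, 7 inside or within 1 kb, and 8 in the first 1576 lines. The count of members with a peak stayed between 4 and 6 under every alternative run for it. The narrower rule of a peak within 1 kb of an end, which gave 3 of 10, was not among these alternatives. The 36.3% of coding genes with a peak became 15.0% inside or within 20 kb, 9.42% within 5 kb, 7.66% within 1 kb, 6.82% inside the gene, and 22.0% in the first 1576 lines. Counting any gene of the table, the member had the nearest end for 6 peaks in place of 9. With 1 mismatch allowed in the PAR bZIP words, Nr1d1 joined Per1 and Per3, but 29.7% of all windows then held a word. The requirement of 150 overlapped bases was chosen after seeing the data and left the Per1 window as the 1 overlapped. No peak score was in the list, so a stricter threshold was not run. No paired analysis was possible because there is 1 library in each arm.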
